A study of Homo sapiens with 33 samples.

Results

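The V50 time course in the line labelled MDA-MD-468 comprised 5 of the 33 libraries of the series, chosen by their labels: 3 libraries of cells treated with V50 for 3, 6 and 12 h, 1 each, and 2 controls labelled 0 h, DMSO and Parental. MDA-MD-468, which the series' design text also spells MDA-MB-468, is an established triple-negative breast cancer line of basal epithelial type, known for amplified EGFR. The series gives 2 such lines inhibitors of the transcriptional kinases CDK7 and CDK9, alone (V50 or SY200) and combined (SY200/V50), and in 1 of them, MDA-MD-231, knocks out CDK genes. The labels do not say which kinase V50 acts on, what V50 is chemically or what unit its number carries, so it is called by its label here. The cells of all 5 libraries are labelled wild type and carry no other agent. Each is a 3′-end mRNA library (QuantSeq), in which transcripts are read at their 3′ end whatever their length, so levels in CPM (counts scaled to a total of 1000000 per library) can be compared between genes without a length correction. No label says that the libraries came from separate cultures, so a p-value measures only the spread between libraries, which may be technical. All controls are at 0 h, so time in culture and V50 cannot be told apart.

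CDK9 with cyclin T forms P-TEFb, which phosphorylates RNA polymerase II and its pausing factors and so releases paused polymerase into gene bodies, and CDK7, the kinase of TFIIH, phosphorylates the polymerase at initiation and activates other CDKs. P-TEFb is held inactive in a particle of 7SK RNA, LARP7, MEPCE and HEXIM1, and its release from that particle when transcription is blocked is a known homeostatic response. When transcription is inhibited, mRNAs with short half-lives, such as those of transcription factors, immediate-early genes and feedback inhibitors of signalling, are known to fall first, while stable mRNAs gain in relative share. Counts scaled to the library total show relative levels only.

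The 5 libraries held 17960765 to 20981496 counts, within the range of the whole series (16985219 to 22859779). The data fit the label of the line: over its 19 epithelial and basal identity markers the median level ran from 163 to 192 CPM, none was at 0, and the same median in MDA-MD-231 never passed 0.198 CPM. Of 11 immune markers, 6 to 8 were at 0 in each of the 5 libraries and their summed level was 4.13 and 7.43 CPM in the controls and 20.9, 13.4 and 4.2 CPM at 3, 6 and 12 h, nearly all of it from CD14. The 10 fibroblast and endothelial markers summed to 12.5 to 27.9 CPM, with 3 to 5 at 0. DMSO and Parental were not the same library: their counts differed far beyond sampling noise (chi-square of 24.9 per degree of freedom), and 133 of the 9765 genes with a mean of at least 10 CPM over the 5 libraries were at least 2-fold apart. Both were used as controls. The 13 mRNAs encoded in mitochondria, which nuclear polymerases do not make, took 3.93% and 3.88% of counts in the controls and 7.38%, 7.75% and 7.42% at 3, 6 and 12 h. Scaling the libraries to these 13 mRNAs in place of TMM moved the median log2 fold change of all genes from -0.05 to -0.99 at 3 h, from -0.05 to -1.10 at 6 h and from -0.02 to -1.01 at 12 h, so a rise of less than about 1 on the log2 scale below turns into a fall on that scale. Which scale is nearer to the amount of RNA per cell was not tested, and in bulk libraries fewer cells with an mRNA and less of it per cell cannot be told apart.

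With V50 more genes fell than rose in MDA-MD-468 cells at 3 and 6 h, and genes in both directions were called at 12 h. Genes were tested with edgeR's quasi-likelihood test with a level for each time, with Benjamini-Hochberg adjustment over 17309 genes, and a gene was called at an adjusted p under 0.05. At 3 h 133 genes were higher than in the controls (0.768% of those tested) and 835 were lower (4.82%). At 6 h 605 were higher (3.5%) and 1361 lower (7.86%), and at 12 h 689 were higher (3.98%) and 556 lower (3.21%). The direct comparison of 12 h with 3 h called 1475 genes higher (8.52%) and 307 lower (1.77%). No control enters its fold change, but its spread comes from the controls.

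These tests have 1 library a time and take their spread from DMSO against Parental alone (1 residual degree of freedom, moderated over genes), so the lone V50 library is assumed to vary like the controls. With 1 spread estimated over both lines (10 libraries, a level per line and time), 0 genes passed at 3 h (2668 at an unadjusted p under 0.05), 23 at 6 h, 0 at 12 h (3613 at an unadjusted p under 0.05) and 224 at 12 h against 3 h, of which 216 were higher. DESeq2 on the 5 libraries called 66 higher and 594 lower at 3 h, 199 and 670 at 6 h, 258 and 304 at 12 h, and 1034 and 177 at 12 h against 3 h. So more genes were higher than lower at 12 h with edgeR and fewer with DESeq2. On the mitochondrial scale falls outnumbered rises at each time, 10643 to 90, 11371 to 343 and 10660 to 343, and at 12 h against 3 h 1359 were higher and 457 lower.

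**Figure D1:**
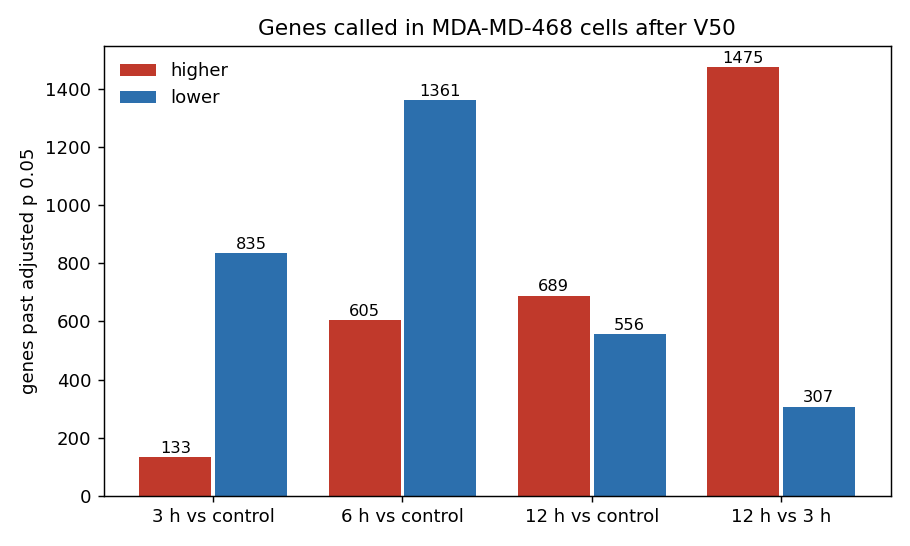
Number of genes past an adjusted p of 0.05 (vertical axis) in MDA-MD-468 cells after V50, for each time against the 2 controls and for 12 h against 3 h; red bars are genes that were higher and blue bars genes that were lower. Lower genes outnumber higher genes at 3 and 6 h (835 to 133 and 1361 to 605), and at 12 h the order turns (556 to 689), which it does not with DESeq2 (304 to 258) or on the mitochondrial scale (10660 to 343).

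With the 3 times as 1 group against the 2 controls (3 residual degrees of freedom), 9 of 16274 genes passed (0.0553% higher, 0% lower; 2836 at an unadjusted p under 0.05). They were 8 of the 13 mitochondrially encoded mRNAs and RP11-159D12.2, an entry known only by its clone name and named here after its values were seen (0.201, 0.384, 6.35, 9.60 and 6.40 CPM in the order DMSO, Parental, 3, 6 and 12 h, which every list of 5 levels below keeps). MT-ND4, a subunit of respiratory complex I, stood at 5719 and 6066 CPM in the DMSO and Parental libraries and 11585, 13042 and 11886 CPM at 3, 6 and 12 h of V50, and MT-ND2, another, at 757, 865, 1674, 1707 and 1709 CPM in the same order. All V50 libraries lay above both controls for these mRNAs, and their levels hardly differed between times. The log2 fold change was 1.05 ± 0.09 (SE) for MT-ND4 and 1.07 ± 0.11 for MT-ND2 (edgeR BH-adjusted p = 0.019 and 0.033). At each single time all 13 passed, with medians of 0.96, 1.05 and 0.99. In this comparison the differences between the 3 times count as replicate spread. With time as a covariate 1366 genes passed, 427 higher and 939 lower. Without the DMSO, the Parental or the V50 6 h library 0 genes passed (1373, 1467 and 1232 at an unadjusted p under 0.05), without the 3 h library 611 and without the 12 h library 439. DESeq2 called 649.

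The course of single genes was described by size alone, with no test, over the 9765 genes of at least 10 CPM, as the log2 difference of each V50 library from the mean of the 2 controls. An early fall that returned (at most -1 at 3 h and at least -0.5 at 12 h) was found in 538 genes (5.51%), a fall of at least 1 at all 3 times in 54 (0.553%), and a late fall (at least -0.5 at 3 h and at most -1 at 12 h) in 276 (2.83%). Of the genes that returned, 14 (0.143%) overshot to at least 1 above the controls at 12 h. Rises were fewer: 35 genes rose early and returned (0.358%), 18 rose at all 3 times (0.184%), 134 rose late (1.37%, among them those that overshot) and 0 rose and then undershot (0%). With DMSO or Parental alone as the control, the early falls that returned numbered 637 and 486, the lasting falls 50 and 102, and the late rises 94 and 210.

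The genes of P-TEFb control changed in opposite directions. HEXIM1, the inhibitor that holds P-TEFb inactive (GRCh38 chromosome 17, 45148502 to 45152101, plus strand, a single-exon gene in GENCODE 29), fell progressively from 100.4 CPM with DMSO and 91.6 in Parental cells, then 40.9, 14.7 and 11.9 CPM at 3, 6 and 12 h. Every V50 library was below both controls, and the lowest was the last. The log2 fold changes were -1.23 ± 0.21, -2.71 ± 0.23 and -3.01 ± 0.24 (edgeR BH-adjusted p = 0.017, 0.002 and 0.0025), and 12 h lay below 3 h (-1.78 ± 0.24, adjusted p = 0.0067, edgeR). MEPCE, which caps 7SK RNA, had 151 and 139 CPM in the DMSO and Parental libraries and 44.8, 34.6 and 76.2 CPM at 3, 6 and 12 h of V50, again below both controls throughout but highest of the 3 at 12 h, and passed at each time (-1.69, -2.07 and -0.93). LARP7, the third protein of the particle, did not pass at any time (32.8, 31.3, 35.6, 28.2 and 23.9 CPM in library order).

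The cyclins of P-TEFb went the other way. CCNT1 had 43.7 and 43.1 CPM in the DMSO and Parental libraries and 32.9, 80.1 and 111 CPM at 3, 6 and 12 h of V50, and CCNT2 42.7, 44.6, 47.7, 85.96 and 111 CPM. For both, the 6 and 12 h libraries lay above the controls, and the 2 controls were nearly equal. CCNT1 rose by 0.89 ± 0.18 at 6 h and 1.36 ± 0.18 at 12 h on the log2 scale (edgeR BH-adjusted p = 0.022 and 0.012), and CCNT2 by 0.98 ± 0.18 and 1.35 ± 0.18 (0.016 and 0.012). Under mitochondrial scaling the 6 h rises turned to -0.17 and -0.08, and the 12 h values were 0.36 and 0.35, not called. The rise from 3 to 12 h did not depend on that scale (1.75 and 1.22, against 1.70 and 1.17). CDK9 itself (38.6, 39.2, 24.2, 35.01 and 56.7 CPM) passed at no single time against the controls but was higher at 12 h than at 3 h (1.23 ± 0.25, adjusted p = 0.018, edgeR).

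BRD2 and ELL of the same list dipped and recovered. Of the list's 32 genes of at least 10 CPM, 2 met the rule for an early fall that returned. BRD2, a bromodomain reader of acetylated histones, had 402 and 319 CPM in the DMSO and Parental libraries and 166, 275 and 573 CPM at 3, 6 and 12 h of V50. ELL, a subunit of the super elongation complex, had 34.7, 37.6, 13.8, 24.6 and 50.2 CPM. Both fell at 3 h (-1.12 and -1.39) and were higher at 12 h than at 3 h (1.79 and 1.86). Of the 37 tested genes of P-TEFb, 7SK and elongation, 0 were higher and 4 lower at 3 h, 2 higher and 8 lower at 6 h, and 2 higher and 2 lower at 12 h. The lower shares of 10.8%, 21.6% and 5.41% stood against 4.82%, 7.86% and 3.21% of all genes, and at 12 h both directions were near that background (5.41% higher, against 3.98%). The list's medians were -0.35, -0.15 and -0.07.

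Among the CDKs, CDK7 fell at 6 h (34.4, 31.6, 22.02, 13.3 and 20.6 CPM, log2 fold change -1.31 ± 0.26, adjusted p = 0.018, edgeR), with all 3 V50 libraries below both controls. CDK1, which drives mitosis, did not pass at any time (176, 169, 149.9, 139 and 172 CPM). CDK12 and CDK13, which phosphorylate the elongating polymerase, fell at 3 and 6 h. CDK12 had 115, 108, 57.9, 32.4 and 78.5 CPM (-0.94 and -1.78), and CDK13 115, 103, 55.4, 61.8 and 152 CPM (-0.98 and -0.82). At 12 h neither passed: CDK12 lay below both controls and CDK13 above both, and CDK13 was higher than at 3 h (1.45 ± 0.22, adjusted p = 0.008, edgeR). CCND1, cyclin D1 and a target of mitogenic signalling, fell at 6 and 12 h (210.1, 322, 136, 92.2 and 89.99 CPM). CCNE2, a cyclin of S-phase entry, fell at 3 h and rose at 12 h (-1.27 and 0.95), the rise turning to -0.06 under mitochondrial scaling. Of 27 CDKs and cyclin partners, 0 rose and 4 fell at 3 h, 3 rose and 5 fell at 6 h, and 4 rose and 1 fell at 12 h. The falls were 14.8%, 18.5% and 3.7% of the list, against 4.82%, 7.86% and 3.21% of all genes, so near that background at 12 h. The rises at 6 and 12 h were 11.1% and 14.8%, against 3.5% and 3.98%.

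**Figure D2:**
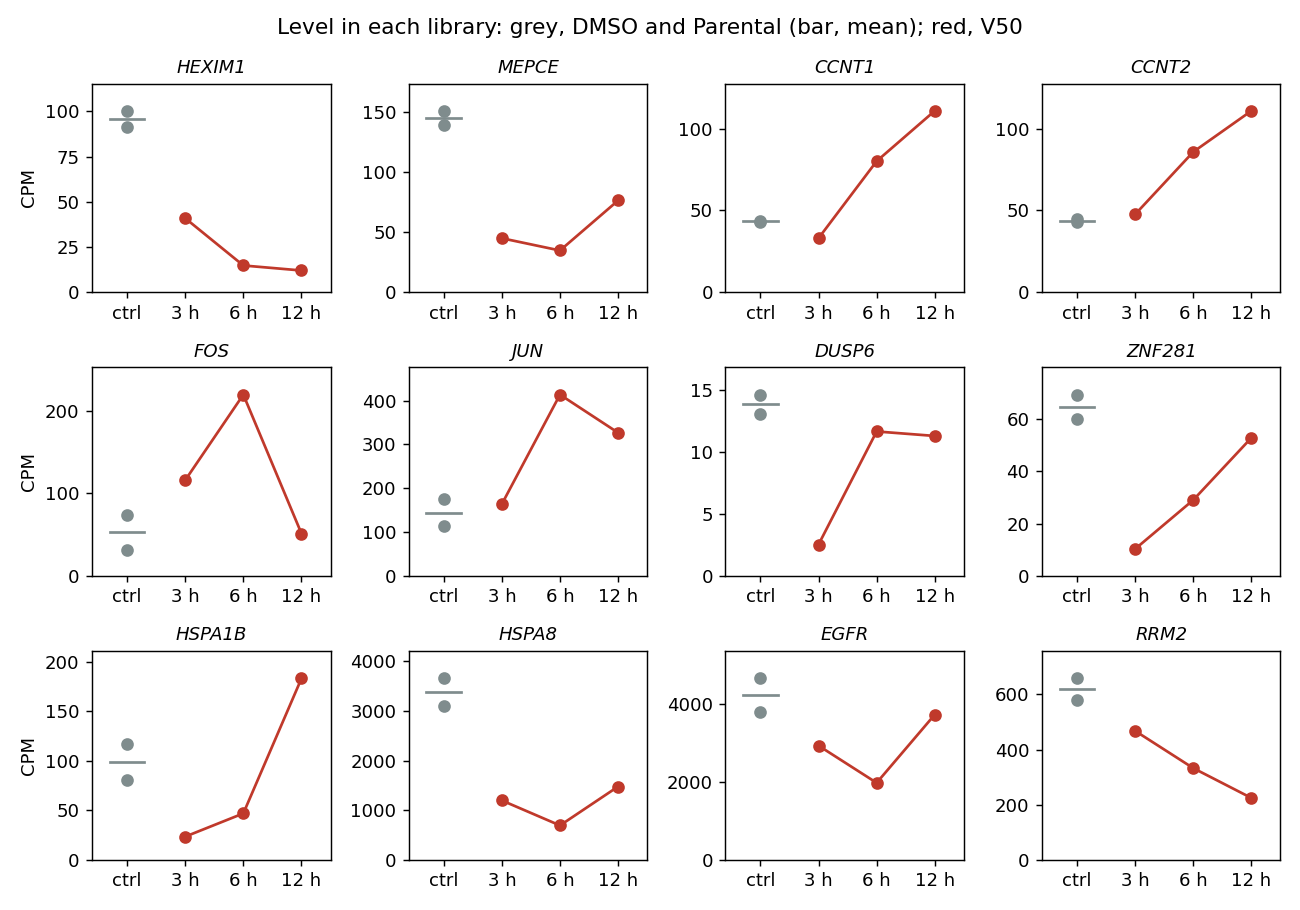
Level of 12 genes in CPM (vertical axes, from 0) in the 2 control libraries (grey points, with their mean as a bar) and in the V50 libraries at 3, 6 and 12 h (red points joined by a line), 1 library a point. HEXIM1 and RRM2 decline to the last time, CCNT1 and CCNT2 climb, FOS peaks at 6 h, and DUSP6, ZNF281 and HSPA1B are lowest at 3 h and recover.

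Signalling feedback genes were the list with the lowest median at 3 h among those shown in the plot of list medians. Dual-specificity phosphatases and Sprouty proteins damp the ERK pathway and are made in response to it. Of 20 tested, 0 were higher and 9 lower at 3 h (45%, against 4.82% of all genes), 3 higher and 4 lower at 6 h, and 0 higher and 1 lower at 12 h, with medians of -1.26, -0.23 and -0.34. At 6 h 15% were higher and 20% lower, against 3.5% and 7.86% of all genes. At 12 h 5% were lower, near the 3.21% of all genes. DUSP6, the ERK-specific phosphatase, had 13.1 and 14.6 CPM in the DMSO and Parental libraries and 2.52, 11.7 and 11.3 CPM at 3, 6 and 12 h of V50. SPRY2, a Sprouty inhibitor, had 30.6, 40.4, 7.67, 29.5 and 27.4 CPM. In both the 3 h library alone stood far below the controls (-2.46 ± 0.35, adjusted p = 0.011 and -2.21 ± 0.29, adjusted p = 0.01, edgeR). SPRY4 was low at 3 and 6 h (17.4, 25.8, 5.15, 8.51 and 13.7 CPM), and DUSP5, a nuclear ERK phosphatase, at all 3 times (31.5, 43.5, 6.52, 6.51 and 14.5 CPM; -2.52, -2.52 and -1.37).

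Members of the WNT, BMP and TGF-beta response list fell at every time. Of 31 tested genes, 0 were higher and 15 lower at 3 h, 1 higher and 14 lower at 6 h, and 0 higher and 6 lower at 12 h. The lower shares were 48.4%, 45.2% and 19.4%, against 4.82%, 7.86% and 3.21% of all genes. Its medians were -1.14, -0.84 and -0.57. Of the receptors of WNT ligands, some came back: FZD1 had 22.6 and 15.5 CPM in the DMSO and Parental libraries and 4.60, 6.63 and 27.97 CPM at 3, 6 and 12 h of V50 and FZD5 30.9, 25.7, 8.22, 6.17 and 21.2 CPM, and both passed at 3 and 6 h and not at 12 h. FZD2 stayed low (14.5, 17.7, 6.08, 3.08 and 4.78 CPM). The ligands also stayed low. BMP2 had 9.46, 13.4, 1.97, 1.94 and 2.25 CPM (log2 fold changes -2.53, -2.56 and -2.35), and BMP4 6.95, 8.29, 0.603, 0.628 and 1.74 CPM (-3.65, -3.59 and -2.13). All V50 libraries were below both controls for these ligands. The inhibitory SMADs divided: SMAD7 fell at 3 h and returned (13.1, 12.4, 3.56, 8.22 and 13.3 CPM), and SMAD6 passed at 6 and 12 h and was lowest at 12 h (20.6, 22.8, 9.86, 6.23 and 4.38 CPM). DKK1, a secreted WNT antagonist, had 9.41, 35.9, 3.62, 1.999 and 1.29 CPM, with controls far apart, and fell at 6 and 12 h (-3.50 ± 0.78, adjusted p = 0.028 and -4.13 ± 0.83, adjusted p = 0.028, edgeR).

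Transcription factors of epithelial identity and growth also fell early. Of 35 lineage and oncogenic factors tested, 0 were higher and 16 lower at 3 h, 3 higher and 12 lower at 6 h, and 2 higher and 3 lower at 12 h, with medians of -1.01, -0.73 and -0.57. The lower shares were 45.7%, 34.3% and 8.57%, against 4.82%, 7.86% and 3.21% of all genes. The higher shares at 6 and 12 h were 8.57% and 5.71%, against 3.5% and 3.98%. TFAP2C, an AP-2 factor of the mammary epithelium, had 106 and 105 CPM in the DMSO and Parental libraries and 34.7, 75.7 and 117 CPM at 3, 6 and 12 h of V50. IRX2, a homeobox factor, had 85.5, 65.4, 19.1, 35.2 and 78.7 CPM. Both were lowest at 3 h and within or above the range of the controls at 12 h. FOXC1, which marks basal-like breast cancer, had 43.8, 36.5, 10.96, 16.6 and 28.4 CPM, and GATA3 37.998, 56.1, 11.2, 21.9 and 24.5 CPM. ID3, an inhibitor of helix-loop-helix factors, had 67.99, 78.2, 15.1, 35.9 and 52.7 CPM and was lower at 3 h (-2.27 ± 0.23, adjusted p = 0.0081, edgeR). FOXQ1 stayed low (15.5, 24.8, 2.96, 5.14 and 4.04 CPM; -2.77, -1.97 and -2.31). SOX9 fell at 3 h (82.03, 158, 23.7, 54.1 and 48.4 CPM, -2.34 ± 0.38, adjusted p = 0.016, edgeR), from controls that were themselves apart. MYC fell at 3 h (57.9, 131, 20.05, 66.3 and 41.1 CPM, -2.23 ± 0.44, adjusted p = 0.026, edgeR), and at 6 h lay between its 2 controls.

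**Figure D3:**
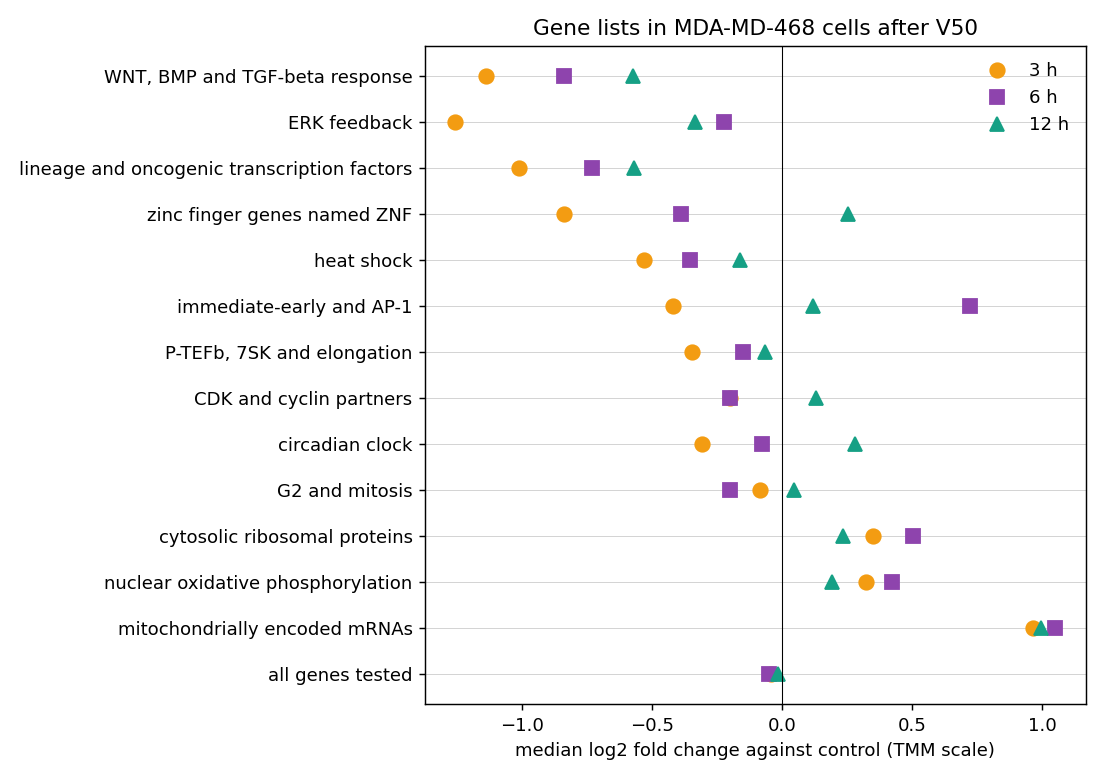
Median log2 fold change against the controls (horizontal axis, TMM scale) of 13 gene lists and of all genes tested, at 3 h (circles), 6 h (squares) and 12 h (triangles). The ERK feedback, WNT/BMP/TGF-beta, lineage factor and ZNF lists are lowest at 3 h, the immediate-early list is highest at 6 h (0.72), and mitochondrially encoded mRNAs stay near 1 at all times.

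Zinc finger genes were numerous among the early falls, 97 of the 835 genes lower at 3 h. Symbols that begin with ZNF and a number name a large family, mostly KRAB zinc finger repressors with short-lived mRNAs. Of 438 tested, 1 was higher and 97 lower at 3 h (22.1%, against 4.82%), 14 higher and 43 lower at 6 h, and 33 higher and 4 lower at 12 h. The 6 h shares, 3.2% higher and 9.82% lower, were near the 3.5% and 7.86% of all genes. At 12 h 7.53% were higher and 0.913% lower, against 3.98% and 3.21%. From 3 h to 12 h 184 rose and 0 fell (42%, against 8.52%), with a median of 1.13, and under mitochondrial scaling 178 rose. Among the genes of at least 10 CPM, ZNF genes were 261 of 9765 in all, 66 of the 538 early falls that returned, 20 of the 134 late rises and 0 of the 276 late falls. ZNF281 (chromosome 1) had 60.1 and 69.4 CPM in the DMSO and Parental libraries and 10.3, 29.1 and 52.9 CPM at 3, 6 and 12 h of V50. ZNF543 had 14.4, 14.5, 2.41, 7.48 and 15.7 CPM and ZNF526 21.8, 25.6, 4.38, 11.4 and 21.96 CPM. In all 3 genes the controls agreed, the 3 h library was the lowest, the 6 h library lay between, and the fall at 3 h passed (-2.65, -2.58 and -2.43).

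The strongest early falls outside these lists were of various functions. MARS2, the mitochondrial methionyl-tRNA synthetase, had 22.2 and 25.6 CPM in the DMSO and Parental libraries and 2.63, 4.23 and 11.6 CPM at 3, 6 and 12 h of V50 and was lower at 3 h (-3.18 ± 0.34, adjusted p = 0.009, edgeR). CISH, an inhibitor of cytokine receptors, had 14.4, 20.5, 2.52, 9.42 and 12.02 CPM and IER5L 24.5, 29.3, 3.89, 9.71 and 15.4 CPM. PPP1R3D, a glycogen-targeting phosphatase subunit, had 23.2, 18.2, 3.07, 8.62 and 20.1 CPM and NUAK2, an AMPK-related kinase, 21.9, 21.7, 3.67, 10.3 and 16.3 CPM. All of these were lowest at 3 h and higher at each later time. PDGFA, a growth factor, and EFNB1, an ephrin, were instead lowest at 6 h (26.2, 15.2, 6.13, 2.34 and 20.6 CPM, and 28.2, 35.5, 11.7, 3.998 and 15.9 CPM). The protein-coding genes lower at 3 h were small: 23.8 kb and 5 exons in the median, against 32.5 kb and 9 exons for all those tested. At 6 h those lower had 39 kb and 9 exons, and at 12 h 38.9 kb and 10 exons. The late falls were longest (44.4 kb, 11.5 exons) and the lasting falls shortest (15.9 kb, 4 exons) among the falling patterns, against 35 kb and 10 exons for all genes of at least 10 CPM.

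Some immediate-early genes fell at 3 h, and more rose at 6 h. These genes, FOS and JUN among them, are switched on within minutes by stress and growth factors, and their mRNAs decay fast. Of 32 tested, 0 were higher and 8 lower at 3 h, 13 higher and 1 lower at 6 h (40.6% higher, against 3.5% of all genes), and 3 higher and 0 lower at 12 h. The falls at 3 h were 25%, against 4.82% of all genes, and the rises at 12 h 9.38%, against 3.98%. The medians were -0.42, 0.72 and 0.12 on the TMM scale and -1.36, -0.33 and -0.88 on the mitochondrial scale. On the mitochondrial scale 3 were higher and 11 lower at 6 h, against 343 and 11371 of all 17309 genes. FOS had 74.3 and 30.98 CPM in the DMSO and Parental libraries and 116, 219.96 and 51.3 CPM at 3, 6 and 12 h of V50, FOSB 19.1, 6.28, 32.4, 100.2 and 13.2 CPM and NR4A1, an orphan nuclear receptor, 21.4, 9.83, 26.5, 73.6 and 20.8 CPM. The 6 h library was above both controls in each, and the 12 h library lay between the controls for all 3. The log2 fold changes at 6 h were 2.06 ± 0.39, 2.98 ± 0.47 and 2.24 ± 0.37 (edgeR BH-adjusted p = 0.016, 0.01 and 0.012), and 0.99, 1.91 and 1.17 under mitochondrial scaling. For FOS, FOSB, NR4A1, EGR1 and DUSP1 the DMSO library was more than 2-fold above Parental. JUN was still higher at 12 h (175, 114, 164, 414 and 327 CPM, 1.18 ± 0.24, adjusted p = 0.029, edgeR), or 0.17 and not called on the mitochondrial scale.

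EGR1, a zinc finger factor induced by growth signals, had 159, 64.7, 107, 359 and 180.5 CPM, DUSP1 33.4, 13.2, 17.7, 77.7 and 22.6 CPM and CCN2, a matricellular target of YAP, 55.3, 29.5, 49.4, 134 and 50.4 CPM. All 3 passed at 6 h and at neither other time (1.68, 1.74 and 1.66, or 0.61, 0.67 and 0.59, none called, on the mitochondrial scale). Other members of the list fell at 3 h and returned. MCL1, an anti-apoptotic protein of very short half-life, had 475 and 415 CPM in the DMSO and Parental libraries and 195, 348 and 579.7 CPM at 3, 6 and 12 h of V50, lower at 3 h than in the controls (-1.19 ± 0.20, adjusted p = 0.016, edgeR) and higher at 12 h than at 3 h (1.57 ± 0.22, adjusted p = 0.0068, edgeR). IER5, an activator of heat shock factor, had 175, 192, 58.4, 166 and 178 CPM. Of 9 anti-apoptotic genes 1 was lower at 3 h, which was MCL1, 1 at 6 h and 0 at 12 h. In that list 1 gene other than MCL1 met the rule for a lasting fall. Of 20 pro-apoptotic genes 3 were lower at 3 h, 4 at 6 h and 0 at 12 h, with 0 higher at any time. Of all genes 4.82%, 7.86% and 3.21% were lower and 0.768%, 3.5% and 3.98% higher, so the absence of rises among 20 genes is near background.

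Heat shock genes split into members that recovered and members that did not. Chaperones of the HSP70 family fold client proteins, and the inducible ones are targets of HSF1. Of 24 tested, 0 rose and 7 fell at 3 h, 0 rose and 7 fell at 6 h, and 2 rose and 4 fell at 12 h. The falls were 29.2%, 29.2% and 16.7%, against 4.82%, 7.86% and 3.21% of all genes. The inducible HSPA1A had 228 and 173 CPM in the DMSO and Parental libraries and 41.4, 63.3 and 250.2 CPM at 3, 6 and 12 h of V50, its near-identical copy HSPA1B 117, 80.7, 23.3, 46.8 and 183 CPM, and their co-chaperone DNAJB1 363, 313, 136, 242 and 425 CPM. Each was lowest at 3 h and highest of all 5 libraries at 12 h. From 3 to 12 h they rose by 2.59 ± 0.26, 2.98 ± 0.30 and 1.64 ± 0.22 (edgeR BH-adjusted p = 0.0064, 0.0064 and 0.0065). How reads were shared between HSPA1A and HSPA1B is not given, so the division between them is uncertain. The constitutive HSPA8 stayed low (3096 and 3656 CPM in the DMSO and Parental libraries and 1195, 690.2 and 1476 CPM at 3, 6 and 12 h of V50; -1.50, -2.29 and -1.19), as did HSPA2 (30.8, 27.7, 7.18, 4.40 and 7.86 CPM). HSPA5, the chaperone of the endoplasmic reticulum, was lower at 12 h (488, 504, 392.4, 328 and 262 CPM, -0.92 ± 0.18, adjusted p = 0.028, edgeR).

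Late in the course several genes of the circadian clock rose. The clock is a feedback loop in which CLOCK and ARNTL (BMAL1) drive the PER and CRY repressors and the factors NR1D1, NR1D2 and TEF through E-box sites of sequence CACGTG. Of 19 tested clock genes, 0 were higher and 2 lower at 3 h, 3 higher and 0 lower at 6 h, and 7 higher and 0 lower at 12 h (36.8% higher, against 3.98% of all genes). The falls at 3 h were 10.5%, against 4.82% of all genes, and the rises at 6 h 15.8%, against 3.5%. Of the 15 clock genes of at least 10 CPM, 7 met the rule for a late rise, which 1.37% of genes did. They were PER1, PER2, PER3, CRY2, NR1D2, TEF and CIART. On the mitochondrial scale 2 of the 19 were higher and 8 lower at 12 h, against 343 and 10660 of all 17309 genes. The list's median there was -0.72 in place of 0.28, while 8 in place of 9 were higher at 12 h than at 3 h.

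The members rose by similar amounts. PER1, a repressor of the loop, had 16.2 and 8.82 CPM in the DMSO and Parental libraries and 10.1, 35.2 and 52.4 CPM at 3, 6 and 12 h of V50. PER3 had 41.1, 41.2, 36.1, 38.6 and 114 CPM, with DMSO and Parental nearly equal, and CRY2, a repressor that binds PER, 27.8, 19.6, 17.5, 22.4 and 60.8 CPM. In each of these the 12 h library was above both controls and the 3 h library was not. TEF, a PAR bZIP factor and clock output, had 27.5, 27.7, 18.5, 29.8 and 75.5 CPM, NR1D2 (REV-ERB beta) 44.3, 45.2, 50.6, 77.1 and 121 CPM, CIART, a repressor of CLOCK and ARNTL, 7.65, 9.54, 6.79, 14.2 and 31.8 CPM, and PER2 13.3, 16.7, 13.04, 18.8 and 41.01 CPM. The log2 fold changes at 12 h ran from 1.36 ± 0.26 for CRY2 to 2.07 ± 0.33 for PER1 (edgeR BH-adjusted p = 0.024 and 0.017; the other 5 lay between 0.0097 and 0.021). PER1 and NR1D2 also passed at 6 h (1.497 and 0.78), where for NR1D2 mitochondrial scaling gave -0.27. NR1D1 was lowest at 3 h (10.2, 9.30, 3.89, 10.5 and 18.4 CPM) and higher at 12 h than at 3 h (2.24 ± 0.36, adjusted p = 0.0093, edgeR). NFIL3, which represses the targets of TEF, fell at 3 h and returned (17.4, 18.5, 7.504, 17.99 and 16.9 CPM). The activators differed from these: CLOCK had 88.6, 85.9, 65.3, 59.3 and 59.7 CPM and ARNTL 19.23, 15.9, 15.99, 11.99 and 11.7 CPM, and neither passed at any time. The list did not rise as a whole: 10 of the 19 genes tested had a positive log2 fold change at 12 h. Of the 15 genes of at least 10 CPM, 1 met the rule for a late fall. The lowest log2 fold changes in the list were -1.83 at 6 h and -1.28 at 12 h, not called.

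Promoters were searched for the E-box in the 250 bases before each annotated start. The 7 late-rising genes were picked by their rise in these data. The clock list holds genes known to be driven through E-boxes, so a high share of the motif was likely beforehand. Whether the E-box has a part in the late rise was not tested. The promoters of 3 are shown for the genes with most copies or the largest rise, from RefSeq, GRCh38.p14, 5′ to 3′ on the gene's strand, with CACGTG in capitals:
CIART (chr1:150282304-150282553, plus strand): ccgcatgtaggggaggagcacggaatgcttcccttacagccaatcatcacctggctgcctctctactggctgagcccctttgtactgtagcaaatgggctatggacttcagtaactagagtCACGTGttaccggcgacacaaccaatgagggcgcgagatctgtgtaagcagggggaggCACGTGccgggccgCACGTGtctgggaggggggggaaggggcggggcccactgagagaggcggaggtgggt
NR1D2, second start (chr3:23945871-23946120, plus strand): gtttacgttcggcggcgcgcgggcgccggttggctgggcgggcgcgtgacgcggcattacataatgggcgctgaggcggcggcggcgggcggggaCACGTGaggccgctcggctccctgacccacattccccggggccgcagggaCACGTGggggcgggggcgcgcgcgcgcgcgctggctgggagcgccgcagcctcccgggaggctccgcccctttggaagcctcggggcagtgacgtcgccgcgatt
PER1 (chr17:8152405-8152654, minus strand): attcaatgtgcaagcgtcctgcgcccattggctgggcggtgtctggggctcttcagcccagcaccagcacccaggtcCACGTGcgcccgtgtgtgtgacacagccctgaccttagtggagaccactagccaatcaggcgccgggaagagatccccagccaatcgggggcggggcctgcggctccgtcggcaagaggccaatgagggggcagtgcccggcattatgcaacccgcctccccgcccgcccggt
The CIART window holds 3 copies, beginning 129, 71 and 57 bases before the start, the NR1D2 window 2, beginning 155 and 105 bases before it, and the PER1 window 1, beginning 173 bases before it. The motif reads the same on both strands. All 7 late-rising clock genes matched the RefSeq table, with 11 starts, of which 5 (45.5%) hold the motif, in CIART, NR1D2, PER1 and TEF. It lies in 7 of 24 windows of the whole clock list (29.2%), also in clock genes that did not meet the rule for a late rise. It lies in 24 of 156 windows of all late-rising genes (15.4%), which include the 11 above. Of windows of genes of at least 10 CPM 8.49% hold it, and of all 35116 windows 6.34%. The windows of PER2, PER3 and CRY2 hold no copy of these 6 letters.

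**Figure D4:**
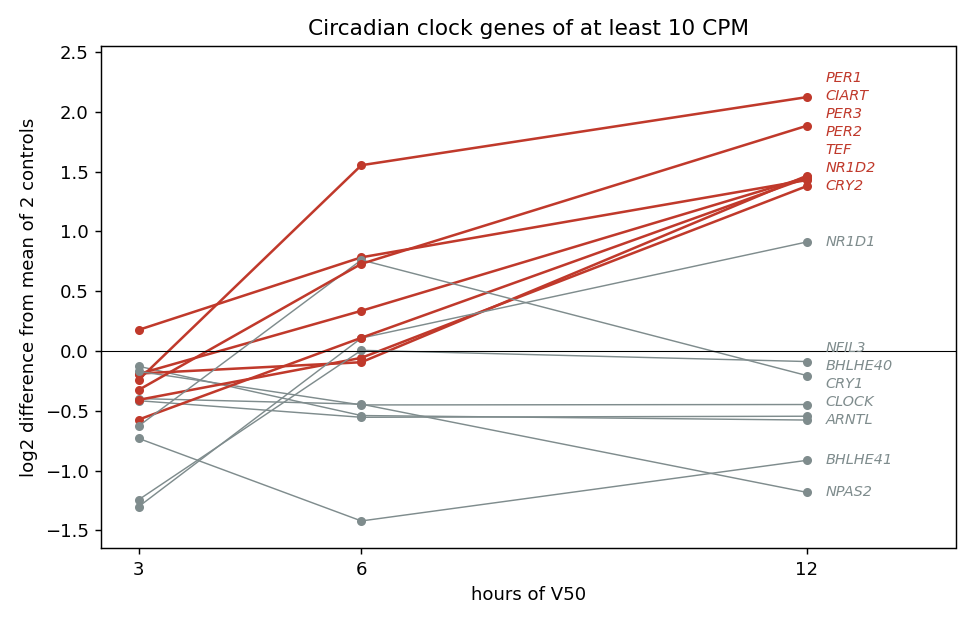
Log2 difference of each V50 library from the mean of the 2 controls (vertical axis) against hours of V50 (horizontal axis) for the 15 circadian clock genes of at least 10 CPM; red lines are the 7 genes that met the rule for a late rise and grey lines the other 8. The red genes lie at 0.18 or below at 3 h and at 1.38 or above at 12 h.

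Other late rises were of separate functions. SLC30A1, a zinc exporter, had 63.8 and 45.6 CPM in the DMSO and Parental libraries and 28.8, 84.5 and 197 CPM at 3, 6 and 12 h of V50 (1.85 ± 0.22, adjusted p = 0.0087 at 12 h, edgeR). SLC7A11, the cystine transporter, had 36.3, 21.2, 20.3, 43.4 and 87.2 CPM. LHX4, a LIM-homeobox factor, peaked at 6 h (18.6, 18.5, 19.6, 111 and 71.5 CPM). In these genes the 12 h library lay above both controls. A pair of genes overshot: RBM15, a subunit of the m6A writer, had 55.97, 50.2, 16.1, 42.04 and 115 CPM, and DCLRE1B, a telomeric nuclease, 34.9, 37.2, 12.8, 46.4 and 77.9 CPM. They fell at 3 h (-1.72 and -1.49) and rose at 12 h (1.12 and 1.11). E2F7, a repressor of the cell cycle, did the same (32.7, 24.2, 12.32, 29.6 and 65.2 CPM), and ORC6, of the origin recognition complex, rose late (40.4, 34.95, 25.9, 47.9 and 81.4 CPM). Of 42 replication and E2F genes, 0 rose and 2 fell at 3 h, 1 rose and 3 fell at 6 h, and 5 rose and 1 fell at 12 h, where rises were 11.9%, against 3.98% of all genes. The falls (4.76%, 7.14% and 2.38%) were near the 4.82%, 7.86% and 3.21% of all genes. MIEF2, of mitochondrial fission, had 19.02, 15.2, 4.05, 13.3 and 32.02 CPM, and CHAC1, a stress-induced glutathione-degrading enzyme, 22.7, 13.6, 3.56, 22.1 and 25.1 CPM. Both fell at 3 h and were higher at 12 h than at 3 h (2.98 and 2.82), but neither met the rule for a late rise. H2BC5, a histone H2B gene that makes polyadenylated mRNA, had 15.1, 10.5, 17.6, 20.4 and 47.3 CPM.

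Late falls included a DNA synthesis enzyme, RNA-binding proteins and epithelial genes. RRM2, the small subunit of ribonucleotide reductase, was lower at 6 and 12 h (658 and 579.7 CPM in the DMSO and Parental libraries and 467.6, 332 and 224 CPM at 3, 6 and 12 h of V50; -1.47 ± 0.20 at 12 h, adjusted p = 0.012, edgeR). The RNA-binding proteins HNRNPD and HNRNPDL and the splicing factor SRSF3 were near the controls at 3 h and fell at 12 h. HNRNPD had 249.6, 301, 306, 235 and 107 CPM, HNRNPDL 198, 245, 222, 152 and 86.1 CPM and SRSF3 409, 355, 357, 259.7 and 171 CPM. In all 3 the 12 h library was the lowest of the 5. Of 36 SR protein, CLK kinase and hnRNP genes, 0 rose and 1 fell at 3 h, 1 rose and 4 fell at 6 h, and 1 rose and 5 fell at 12 h. The falls were 2.78%, 11.1% and 13.9%, against 4.82%, 7.86% and 3.21% of all genes, so near that background at 3 and 6 h. UTP18, of ribosome biogenesis, had 35.98, 42.1, 35.002, 20.8 and 7.86 CPM, and SPDEF, an epithelial ETS factor, 103, 183, 223, 98.98 and 28.7 CPM. GNE, the first enzyme of sialic acid synthesis, had 124, 327, 247, 83.3 and 38.6 CPM, and SH3TC2 21.7, 38.2, 21.9, 10.1 and 3.48 CPM. CLDN1 and CLDN8, claudins of tight junctions, had 32.5, 51.4, 49.6, 32.6 and 16.96 CPM and 19.9, 69.3, 39.8, 14.2 and 6.07 CPM, and KRT18, a simple-epithelial keratin, 932, 1539.7, 1093, 939 and 494 CPM. Each of these passed at 12 h, and for SPDEF, GNE, CLDN8 and KRT18 the controls were themselves well apart. FOXI1 instead met the rule for a lasting fall, from controls of 33.4 and 83.4 CPM to 21.7, 11.9 and 7.25 CPM. It passed at 6 and 12 h.

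EGFR, the amplified receptor of this line, was lowest at 6 h (3789 and 4653 CPM in the DMSO and Parental libraries and 2928, 1973 and 3726 CPM at 3, 6 and 12 h of V50; -1.10 ± 0.21, adjusted p = 0.018, edgeR) and at 12 h was just below its lower control. The insulin receptor INSR was also lowest at 6 h, and at 12 h above both controls (26.9, 28.3, 13.9, 5.77 and 32.6 CPM; -2.26 at 6 h), and MET was lower at 6 and 12 h (100.1, 148, 75.8, 58.7 and 51.003 CPM). Of 23 receptor tyrosine kinases and EGFR ligands, 0 rose and 1 fell at 3 h, 0 rose and 7 fell at 6 h, and 0 rose and 1 fell at 12 h. The falls were 30.4% at 6 h, against 7.86% of all genes, and 4.35% at 3 and 12 h, near the background of 4.82% and 3.21%. CEBPB, a bZIP factor of stress and inflammation, was low throughout (73.8, 109, 24.1, 22.6 and 37.1 CPM; -1.92, -2.02 and -1.30).

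Noncoding RNAs were among the genes that rose. Genes annotated as protein-coding were 51.9% of those higher at 3 h, 54.4% at 6 h and 68.7% at 12 h. They were 75.6% of all genes tested and 98.2%, 97.1% and 95.1% of those lower. A gene type could be matched for only 77.4%, 74.7% and 83.5% of the higher genes. It was matched for 90% of all genes tested and 99.3%, 99% and 98.7% of the lower genes. Genes without a type count as not protein-coding in these shares, so part of the gap lies in the annotation. NEAT1, the RNA scaffold of paraspeckles, had 70.6 and 73.9 CPM in the DMSO and Parental libraries and 259, 201 and 83.9 CPM at 3, 6 and 12 h of V50, and MALAT1, of nuclear speckles, 112, 113, 244, 218 and 153 CPM. Both were high at 3 and 6 h and NEAT1 was near the controls at 12 h. NEAT1 rose by 1.84 ± 0.17, adjusted p = 0.0074 and MALAT1 by 1.11 ± 0.17, adjusted p = 0.014 at 3 h (edgeR). On the mitochondrial scale MALAT1 was at 0.17 at 3 h and turned to -0.11 at 6 h, and NEAT1 at 0.90 and 0.42. NORAD, a cytoplasmic noncoding RNA that binds PUMILIO, fell at 6 and 12 h (207, 211, 159, 114 and 86.2 CPM). LINC00641 rose at all 3 times (2.37, 2.16, 19.23, 29.6 and 14.4 CPM; 3.08, 3.71 and 2.67), as did CYP4Z1, a mammary cytochrome P450 (5.18, 10.5, 50.8, 41.5 and 27.9 CPM), FAM229A (4.58, 1.82, 15.7, 28.7 and 28.98 CPM) and SH3BP5-AS1 (4.28, 3.26, 12.6, 23.9 and 18.8 CPM). ZNNT1, IQCN and RBM26-AS1 passed at 6 and 12 h and not at 3 h, where ZNNT1 and IQCN were already more than 1 above the mean of the controls on the log2 scale (1.91, 1.63, 4.22, 26.7 and 36.3 CPM, 3.32, 0.719, 5.26, 33.8 and 31.1 CPM, and 4.63, 3.93, 8.38, 21.4 and 24.2 CPM). The controls of IQCN were themselves far apart. CYP4Z1, FAM229A and IQCN are annotated as protein-coding. Whether counting used the strand is not given in the sources used here, so reads of the antisense genes cannot be told apart from those of their partners.

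Several large lists had few calls by the test. Of 78 cytosolic ribosomal protein genes 0 were higher at 3 h, 1 at 6 h and 0 at 12 h, with 0 lower at any time. The list's median was 0.35, 0.50 and 0.23 in turn, and -0.59, -0.55 and -0.77 on the mitochondrial scale. Of 66 nuclear genes of oxidative phosphorylation 0, 2 and 0 were higher and 0 lower, with medians of 0.32, 0.42 and 0.19 that also turned negative on that scale. On the TMM scale 78, 78 and 74 of the ribosomal and 65, 66 and 52 of the oxidative phosphorylation genes had positive fold changes. Of all 17309 genes 8050, 8161 and 8439 did. Few calls thus do not show that either list stood still. Of 32 G2 and mitosis genes, 0 were higher and 0 lower at 3 h, 1 and 1 at 6 h, and 2 and 0 at 12 h. Of 39 interferon-stimulated genes 0 were higher and 1 lower (2.56%) at each time. Their medians nevertheless went down, at -0.105, -0.335 and -0.626, against -0.045, -0.05 and -0.018 for all genes. Of all genes 0.768%, 3.5% and 3.98% were higher and 4.82%, 7.86% and 3.21% lower. The few calls among the mitosis and interferon genes are thus near background and do not show that these lists stood still. The 1 tested immune marker, CD14, a lipopolysaccharide co-receptor that epithelial cells can also express, had 3.67, 7.24, 20.4, 13.4 and 4.04 CPM and was higher at 3 h (1.90 ± 0.39, adjusted p = 0.028, edgeR). The defining leukocyte markers PTPRC and CD3E did not pass the filter on low counts.

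The response of the other line, MDA-MD-231, to V50 was set beside it in 10 libraries with the same controls and times. No gene was called different between the lines in its response (0% higher and 0% lower of 18188, edgeR; 914 at an unadjusted p under 0.05, smallest adjusted p = 0.98). DESeq2 called 7. With time as a block, again 0 passed and 1626 had an unadjusted p under 0.05. HEXIM1 in MDA-MD-231 had 174 and 165 CPM in the controls and 60.9, 21.9 and 14.1 CPM at 3, 6 and 12 h, and CCNT1 40.5 and 40.5 CPM in the controls and 10.9, 46.8 and 116 CPM at 3, 6 and 12 h. The difference between the lines was 0.34 ± 0.86 for HEXIM1 and 0.32 ± 1.04 for CCNT1 on the log2 scale. NEAT1 was at 60.2 and 27.6 CPM in the controls and 21.2, 24.96 and 25.95 CPM at 3, 6 and 12 h in MDA-MD-231, a difference of 2.24 ± 0.61 (edgeR BH-adjusted p = 0.98). CIART was at 0.246 CPM or less in all 5 libraries of that line, and PER1 had 14.3 and 8.15 CPM in the controls and 5.70, 8.77 and 19.8 CPM at 3, 6 and 12 h. A p that misses the threshold does not show that the lines respond alike.

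Against SY200, the other single agent, in the same line, 5 of 17206 genes differed (3 higher with V50, 0.0174%, and 2 lower, 0.0116%; edgeR over 11 libraries of 4 conditions). POLR2A, the largest subunit of RNA polymerase II (chromosome 17), had 283 and 259.8 CPM in the controls, 203, 141 and 171 CPM with V50 and 514, 546 and 549 CPM with SY200 at 3, 6 and 12 h. No V50 library reached the controls and no SY200 library came down to them. The difference was -1.64 ± 0.15 on the log2 scale (adjusted p = 0.0014, edgeR). Of 16 polymerase II subunits tested, POLR2A was the only one called. The other 4 were singled out after their values were seen: RNU5A-1, a spliceosomal U5 RNA gene, SNORD3B-1, a U3 small nucleolar RNA gene, and the clone-named CH17-353B19.2 were higher with V50, and the pseudogene HSBP1P2 was lower. RNU5A-1 had 0.965 and 0.554 CPM in the controls, 7.05, 14.8 and 15.1 CPM with V50 and 0.727, 0.380 and 0.751 CPM with SY200, and SNORD3B-1 0.965 and 0.878 CPM, 4.88, 4.64 and 4.07 CPM and 0.503, 0.285 and 0.610 CPM. CH17-353B19.2 had 0.048 and 0.139 CPM, 2.38, 3.74 and 3.29 CPM and 0.168, 0.190 and 0.094 CPM. The V50 libraries of these 3 genes lay above all controls and SY200 libraries. HSBP1P2 was high with SY200 alone, at 13.1, 15.5 and 13.8 CPM, against 0.379, 1.30 and 1.004 CPM with V50. The log2 differences were 4.30 ± 0.45 for RNU5A-1 and 3.27 ± 0.33 for SNORD3B-1 (edgeR BH-adjusted p = 0.0027 and 0.0023). RNU5A-1 and SNORD3B-1 belong to families of near-identical copies, and their mature RNAs carry no poly(A) tail, so which transcripts were counted is uncertain. With time as a block 11 genes passed, these 5 among them.

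Cells given SY200 with V50 had lower levels of some genes that had come back with V50 alone. SY200/V50 against V50 called 0 genes higher (0%) and 4 lower (0.0232%) without a time term (2628 at an unadjusted p under 0.05). With time as a block 220 passed, 2 higher and 218 lower, and DESeq2 without the block called 551. C15orf39 had 20.9, 58.7 and 56.5 CPM with V50 and 7.13, 8.86 and 7.16 CPM with SY200/V50, against 60.997 and 58.9 CPM in the controls. The 3 h library alone was low with V50, whereas all 3 were low with SY200/V50 (-2.55 ± 0.34, edgeR BH-adjusted p = 0.042). The other 3 were RNU5A-1, SNORD3B-1 and CH17-353B19.2, at 0.936, 1.42 and 2.23 CPM, 0.468, 0.624 and 0.556 CPM and 0.156, 0.454 and 0.139 CPM with SY200/V50. With the block, 16 of 32 immediate-early genes and 37 of 437 ZNF genes were lower with SY200/V50 and 0 higher, with medians of -1.13 and -0.65. Over all 17206 genes tested, 218 were lower and 2 higher, with a median of 0.02, so the absence of rises in these lists is near background. MCL1 had 193, 345 and 575 CPM with V50 and 129.7, 160.02 and 163 CPM with SY200/V50, and CIART 6.72, 14.1 and 31.6 CPM and 2.60, 4.83 and 12.17 CPM. Both passed with the block only (-1.16 ± 0.20 and -1.42 ± 0.27; edgeR BH-adjusted p = 0.026 and 0.037). HEXIM1 did not differ by the test (40.4, 14.6 and 11.8 CPM against 38.5, 20.2 and 10.7 CPM; 0.06 ± 0.48). Without the 3 h V50 library 682 genes passed, and without any other library of the 2 groups 0 did (869 to 4444 at an unadjusted p under 0.05).

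**Figure D5:**
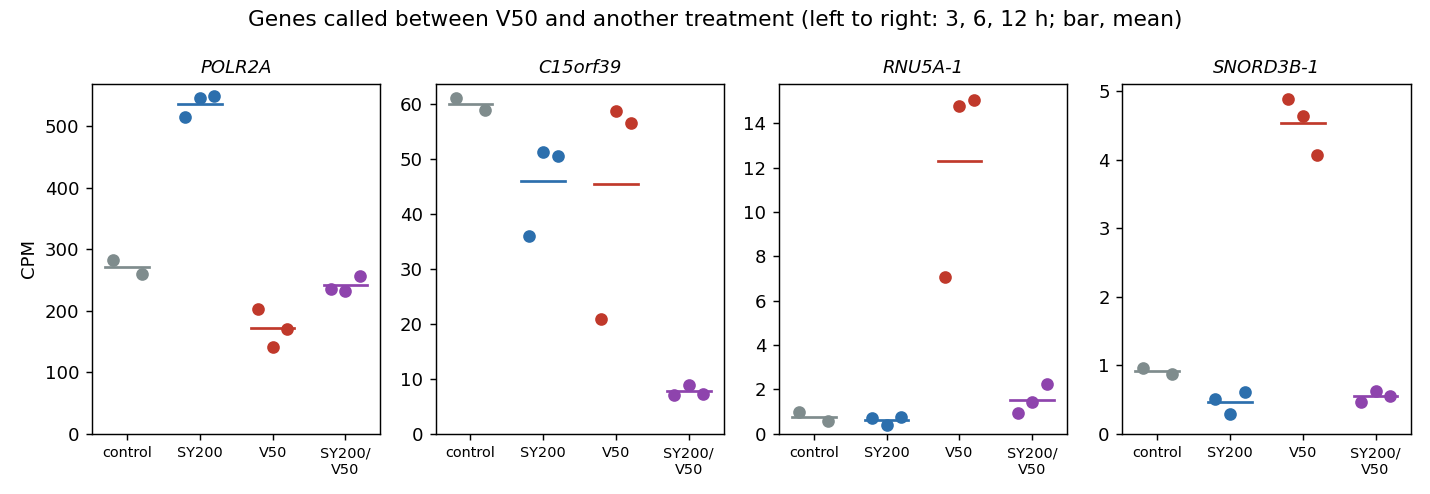
CPM (vertical axes, from 0) of 4 genes called in the comparisons with other treatments, in the 11 MDA-MD-468 libraries: controls (grey), SY200 (blue), V50 (red) and SY200/V50 (purple), each treatment ordered 3, 6 and 12 h from left to right, with the mean as a bar. POLR2A is at 514 CPM or more with SY200 alone, and RNU5A-1 and SNORD3B-1 are above 4 CPM with V50 alone.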

How the data were processed

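The deposited values were counts of reads per gene entry (59428 entries, 33 libraries), which the authors made from 3′-end sequencing reads. Per the submitters' processing notes, FastQC and STAR 2.7.10a were used with the human build GRCh38. No source used here gives the counting tool, its strand setting or how it treated reads shared between copies. Per the labels' protocols, RNA was extracted with a miRVANA kit and made into QuantSeq 3′ FWD libraries. All 5 libraries were used, with 17960765 to 20981496 counts each.

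Counts were tested with edgeR 4.0.16 (R 4.3.3): filterByExpr (minimum counts of 10 in a library and 15 over all), TMM scaling, quasi-likelihood tests and Benjamini-Hochberg adjustment over all genes tested, with calls at an adjusted p under 0.05. The fits were DMSO and Parental against the 3 V50 libraries; a level per time in the same 5 libraries; line by V50 in 10 libraries; and 4 conditions in 11. Errors beside fold changes are standard errors. Alternatives were DESeq2 1.42.0, its size factors in edgeR, no filter beyond a total above 0, scaling to the 13 mitochondrially encoded mRNAs, libraries left out, other sets of libraries, and time as a covariate or block. The code was tested on simulated data. Time patterns used log2 CPM with a prior count of 2.

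Named genes were CDK1, CDK7 and CDK9, the largest changes in each comparison and time pattern among genes of at least 10 CPM, and up to 4 members of each list by adjusted p. Other list members named here were chosen after their values were seen. The members, gene lists and rules were all chosen with earlier results of these data known. Libraries of the same time tended to deviate together from their group means, to differing degrees. Correlations at 3, 6 and 12 h were 0.58, 0.17 and 0.72 between V50 and SY200, 0.36, 0.35 and 0.14 between V50 and SY200/V50 (both in MDA-MD-468), and 0.61, 0.48 and 0.68 between the lines. At 6 h the V50 library did not correlate best with the 6 h library of SY200 or of SY200/V50. In the other cases the same-time library was the best match. Time served as a block that pairs libraries in an alternative fit, and this pairing is uneven. Of the 59428 entries, 37664 matched an annotated gene by symbol and 2429 by identifier, and 19335 matched none. Some genes and lists are not reported here.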

Additional observations from a re-analysis of the deposited data

How the results depend on the processing

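Among the genes named, no called direction turned with DESeq2's size factors, DESeq2 or the absence of a filter, but calls were lost. Without a filter 38 were lost and 26 kept at 3 h, 30 and 39 at 6 h, and 46 and 14 at 12 h. With the spread of both lines 64 were lost at 3 h, 62 at 6 h (7 kept) and 60 at 12 h. Over all comparisons DESeq2's size factors left each count of calls within 1.5 times. DESeq2 gave 649 genes for V50 against control, 869 at 6 h, 562 at 12 h, 7 for the difference between lines, 37 against SY200 and 551 for SY200/V50 against V50. Without a filter on low counts the counts were 271 for V50 against control, 90 at 3 h, 609 at 6 h, 65 at 12 h, 668 for 12 h against 3 h, 259 against SY200 and 1463 for SY200/V50 against V50, with more genes tested. Scaling to mitochondrial mRNAs gave 11485 for V50 against control, of which 11305 lower, 10733 at 3 h, 11714 at 6 h, 11003 at 12 h, 9 against SY200 and 12 for SY200/V50 against V50, and 1816 for 12 h against 3 h, close to the 1782 reported. On that scale the log2 values of CCNT1 (-0.17), CCNT2 (-0.079), NR1D2 (-0.27) and MALAT1 (-0.11) at 6 h and of CCNE2 (-0.057) at 12 h turned from higher to lower. With the spread of both lines 0 genes passed at 3 h, 23 at 6 h, 0 at 12 h and 224 at 12 h against 3 h. V50 against control gave 4 genes in 11 libraries and 1366 with time as a covariate. Leaving out 1 library gave 0 to 611 genes for V50 against control, 0 to 682 for SY200/V50 against V50, 4 to 7 against SY200 and 0 each time for the lines. It was not possible for single times, where without a control no residual degree of freedom remains. With time as a replicate block 0 genes differed between lines, 11 against SY200 and 220 for SY200/V50 against V50. Of the time patterns, mitochondrial scaling gave 2939 lasting falls, 1 overshoot, 0 early rises that returned, 2 lasting rises and 6 late rises. Parental alone as the control gave 102 lasting falls, 23 overshoots, 14 early rises and 210 late rises, and DMSO alone 9 overshoots, 85 early rises, 33 lasting rises and 3 undershoots. With genes from 1 CPM there were 152 lasting falls, 603 late falls, 133 early rises, 212 lasting rises, 306 late rises and 5 undershoots. Causes of these shifts were not tested, except that alternatives with more genes or fewer libraries differ by construction. With 1 library a time, a fall at 3 h and the state of that library cannot be told apart.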
